A study of Carica papaya with 12 samples.

Results

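In the larger female flower buds of papaya, 12 genes peaked. They were chosen by level: with 0.5 added to each count normalised to its library total (CPM), the lower of the 2 female 7–12 mm libraries had to reach 2 and to be at least 2 times the highest of the other 10 libraries, and genes named in the tables of the study were left out. Of 27689 genes counted, 12 met this rule. RNA sequencing had been run on flower buds of 3 sex types in 2 size classes, 7–12 mm (post-meiosis) and 1–6 mm (pre-meiosis), with 2 biological replicates per group, which gave 12 libraries in 6 groups. The groups were female 'AU9' buds, male 'AU9' buds and hermaphrodite 'SunUp' buds of each size, all untreated and grown at one research station. Because every hermaphrodite was a 'SunUp' plant, effects of cultivar and of sex cannot be told apart in comparisons with them. Each library was made from ground buds, and nothing says which plants gave them, so p-values measure the spread between these samples. That spread includes the difference between replicate 1 and replicate 2, which were sequenced on different platforms.

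In papaya, female flowers carry a large ovary with many ovules and lack stamens, male flowers carry stamens and a rudimentary pistil, and hermaphrodite flowers form both organs. The study labelled the larger buds post-meiosis by their size. In female flowers the ovary and the ovules grow on while no pollen is made. A whole bud mixes sepals, petals and reproductive organs, so in these bulk samples fewer cells of a type and less RNA per cell cannot be told apart. The 12 genes carry only gene model identifiers in the counts: 0 of the 27689 identifiers matched the RefSeq gene table, and no name or function is given to them here.

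The library labels held for the tissue check that the counts allow. The summed level of 7 stamen and tapetum markers (among them MALE STERILITY 1, ABORTED MICROSPORES-like and TDF1, regulators of the tapetum that feeds the pollen) lay at 0.550 to 2.69 CPM in female 7–12 mm buds and at 0.263 to 2.57 CPM in female 1–6 mm buds, against 1460 to 1836 CPM in hermaphrodite 7–12 mm buds, 818 to 980 CPM in hermaphrodite 1–6 mm buds, 800 to 838 CPM in male 7–12 mm buds and 1181 to 1534 CPM in male 1–6 mm buds. Single markers did not all follow the sum. MALE STERILITY 1 had 0.135 and 0 CPM in hermaphrodite 1–6 mm buds. MALE MEIOCYTE DEATH 1 had 0.157 and 0.443 CPM in male 7–12 mm buds, against 0.138 and 0.135 CPM in female 7–12 mm buds. The study took 2 of the 7 markers from its differential expression in these samples and the other 5 from what is known in Arabidopsis. Library totals ranged between 4520811 counts (hermaphrodite 1–6 mm, replicate 2) and 16564137 counts (male 1–6 mm, replicate 1). A floor of 3 counts, which covers counting error alone, was worth 0.206 and 0.404 CPM in the female 7–12 mm libraries and 0.664 CPM in the shallowest library. Each replicate 2 library held fewer counted reads than the replicate 1 library of its group, which was not so for the total reads sequenced.

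The choice itself was narrow. In 16612 genes the lower female 7–12 mm value reached the floor, in 867 of these both female 7–12 mm libraries stood above all other 10, and in 55 they did so by at least 1.5 times. The 12 genes reached 2.03 to 10.8 times the highest other value. Just inside the threshold lay evm.model.supercontig_276.2 at 2.03 and evm.model.supercontig_126.31 at 2.15, and just outside it lay evm.model.supercontig_14.59 and evm.model.supercontig_115.23, both at 1.98. The choice used the female 7–12 mm libraries, so every value that sets them against another group is a description and carries no test. The number of genes met by the rule depended on its multiple: 55 genes met it at 1.5 times and 2 at 3 times.

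Summed over the 12 genes, the level was 562 and 500 CPM in female 7–12 mm buds, against 152 and 172 CPM in female 1–6 mm buds, 98.4 and 67.6 CPM in hermaphrodite 7–12 mm buds, 105 and 103 CPM in hermaphrodite 1–6 mm buds, 37.6 and 43.1 CPM in male 7–12 mm buds and 80.2 and 74.8 CPM in male 1–6 mm buds. Most of that sum came from evm.model.supercontig_276.1 and evm.model.supercontig_48.1, which held 72.8 and 70.6 percent of it in the female 7–12 mm libraries, against 29.5 and 38.4 percent in the male 7–12 mm libraries. The level in female 7–12 mm replicate 1 was 0.540 to 1.67 times that in replicate 2 across the 12 genes and was the higher one for 6 of them.

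**Figure D1:**
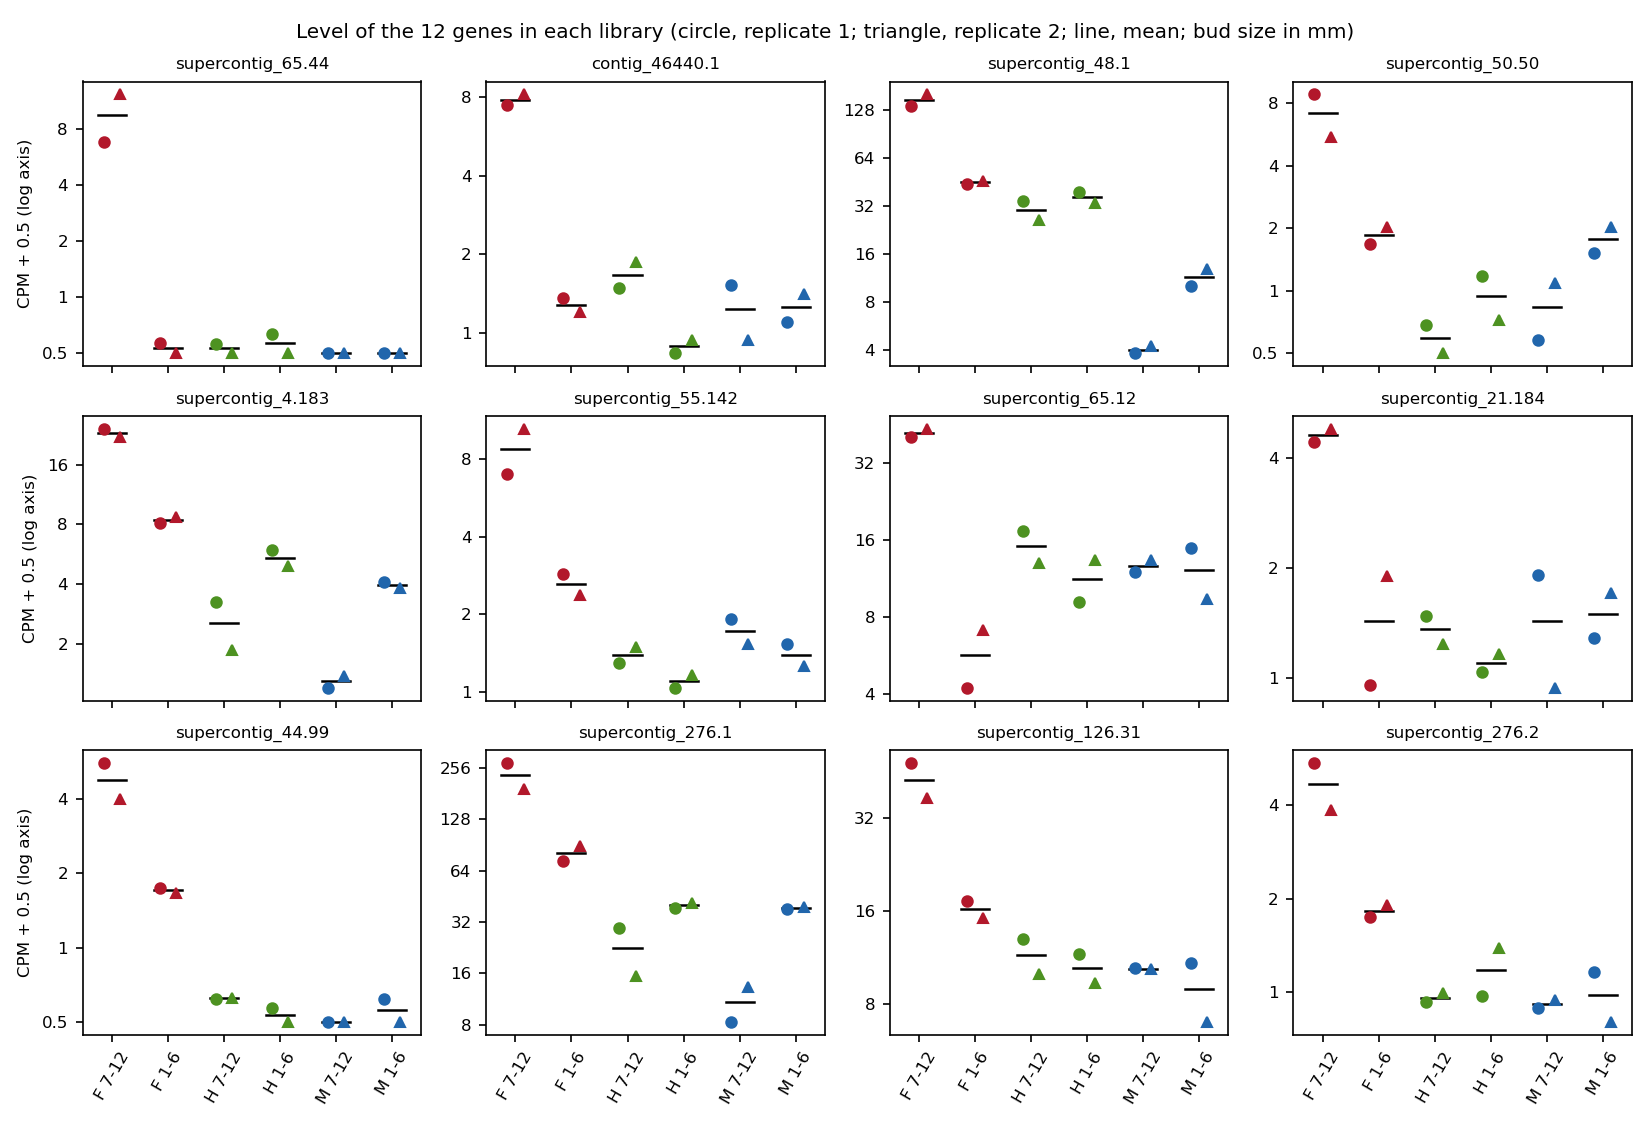
Level of each of the 12 genes in the 12 libraries, as CPM plus 0.5 on a log axis, by sex type (F female, H hermaphrodite, M male) and bud size in mm. Circles are replicate 1, triangles replicate 2 and lines the mean of both; in every panel the 2 female 7–12 mm libraries stand above the other 10, which is how the genes were chosen.

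The most abundant of the genes was evm.model.supercontig_276.1, a model of 710 coding bases. It had 273 and 193 CPM in female 7–12 mm buds, 73.0 and 89.1 CPM in female 1–6 mm buds, 29.0 and 15.0 CPM in hermaphrodite 7–12 mm buds, 38.2 and 40.9 CPM in hermaphrodite 1–6 mm buds, 7.79 and 12.9 CPM in male 7–12 mm buds and 37.9 and 39.0 CPM in male 1–6 mm buds. Female 1–6 mm buds came next, above all 8 libraries of the other sex types, and male 7–12 mm buds were lowest. The mean in female 7–12 mm buds was 233.02 ± 56.8 CPM (SD, n = 2), 2.88 times that in female 1–6 mm buds, 10.6 times that in hermaphrodite 7–12 mm buds and 22.6 times that in male 7–12 mm buds. Per kilobase of coding length it was also the most abundant of the 12, at 328 CPM per kilobase in female 7–12 mm buds, with evm.model.supercontig_48.1 next at 107.27.

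The second, evm.model.supercontig_48.1, had 136 and 160 CPM in female 7–12 mm buds, 43.5 and 45.6 CPM in female 1–6 mm buds, 33.8 and 25.5 CPM in hermaphrodite 7–12 mm buds, 38.4 and 32.96 CPM in hermaphrodite 1–6 mm buds, 3.31 and 3.69 CPM in male 7–12 mm buds and 9.60 and 12.3 CPM in male 1–6 mm buds. All female libraries were above all hermaphrodite libraries, and these were above all male ones. The mean in female 7–12 mm buds was 148 ± 16.9 CPM (SD, n = 2), 42.3 times that in male 7–12 mm buds, 4.99 times that in hermaphrodite 7–12 mm buds and 3.32 times that in female 1–6 mm buds.

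Near absence elsewhere marked evm.model.supercontig_65.44, with the largest ratio under the rule. It had 92 and 87 counts (6.33 and 11.7 CPM) in female 7–12 mm buds, against 1 and 0 counts in female 1–6 mm buds, 1 and 0 in hermaphrodite 7–12 mm buds, 2 and 0 in hermaphrodite 1–6 mm buds and 0 in all 4 male libraries. Over the summed counts, the level in female 7–12 mm buds was at least 52.9-fold higher than in male 7–12 mm buds and at least 62.9-fold higher than in male 1–6 mm buds, taking 3 counts over the group as the floor. Against female 1–6 mm buds, with a single count, the ratio was 194 with a 95% counting interval of 34.3 to 7687. It was the only one of the 12 genes with no more than 2 counts in any other library, and the only one that would not have passed the filter on low counts without the female 7–12 mm libraries.

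A pattern of females above both other sex types at either size was seen in evm.model.supercontig_44.99. It had 5.09 and 3.50 CPM in female 7–12 mm buds and 1.25 and 1.17 CPM in female 1–6 mm buds. It had only 2 and 1 counts in hermaphrodite 7–12 mm buds, 1 and 0 in hermaphrodite 1–6 mm buds, 0 and 0 in male 7–12 mm buds and 2 and 0 in male 1–6 mm buds, against 74 and 26 counts in female 7–12 mm buds and 19 and 10 in female 1–6 mm buds. The mean in female 7–12 mm buds was 3.55 times that in female 1–6 mm buds. In the other sex types every library was at or under the count floor.

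In evm.model.supercontig_65.12 the smaller female buds were the lowest group of all. It had 39.9 and 43.1 CPM in female 7–12 mm buds and 3.75 and 6.66 CPM in female 1–6 mm buds, against 16.8 and 12.5 CPM in hermaphrodite 7–12 mm buds, 8.68 and 12.8 CPM in hermaphrodite 1–6 mm buds, 11.5 and 12.9 CPM in male 7–12 mm buds and 14.4 and 8.95 CPM in male 1–6 mm buds. The 8 male and hermaphrodite libraries overlapped with each other and all lay between both female groups. The mean in female 7–12 mm buds was 7.97 times that in female 1–6 mm buds, but 2.83 times that in hermaphrodite 7–12 mm buds, the next highest group.

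For evm.TU.contig_46440.1, a single-interval model of 563 bases, the level was 6.95 and 7.67 CPM in female 7–12 mm buds, 0.855 and 0.701 CPM in female 1–6 mm buds, 0.979 and 1.36 CPM in hermaphrodite 7–12 mm buds, 0.336 and 0.442 CPM in hermaphrodite 1–6 mm buds, 1.02 and 0.443 CPM in male 7–12 mm buds and 0.604 and 0.910 CPM in male 1–6 mm buds. The other 10 libraries all lay at 1.36 CPM or less. Female 7–12 mm buds had 9.39 times the mean of female 1–6 mm buds, the largest such fold among the 11 genes for which female 1–6 mm buds had more than 3 counts.

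In evm.model.supercontig_4.183, the longest of the 12 models with 3023 coding bases, the smaller buds came above the larger ones in hermaphrodites and males. It had 23.7 and 21.7 CPM in female 7–12 mm buds and 7.63 and 8.183 CPM in female 1–6 mm buds, against 2.75 and 1.36 CPM in hermaphrodite 7–12 mm buds, 5.45 and 4.42 CPM in hermaphrodite 1–6 mm buds, 0.708 and 0.887 CPM in male 7–12 mm buds and 3.62 and 3.34 CPM in male 1–6 mm buds. No group overlapped with another. The fold of female 7–12 mm buds was 28.5 over male 7–12 mm buds, but 6.52 over male 1–6 mm buds.

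The gene evm.model.supercontig_126.31 was well detected in every library, with 6.52 to 16.8 CPM outside female 7–12 mm buds. It had 47.6 and 36.6 CPM in female 7–12 mm buds and 16.8 and 14.7 CPM in female 1–6 mm buds, against 8.85 to 12.5 CPM in the 4 hermaphrodite libraries and 6.52 to 10.4 CPM in the 4 male libraries. Female 7–12 mm buds had 2.67 times the mean of female 1–6 mm buds, the smallest such fold of the 11.

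The remaining 4 genes were of low level, with 3.36 to 9.96 CPM in female 7–12 mm buds. For evm.model.supercontig_55.142, female 7–12 mm buds had 6.46 and 9.96 CPM and female 1–6 mm buds 2.37 and 1.87 CPM, against 0.538 to 1.42 CPM in the other 8 libraries. For evm.model.supercontig_50.50, female 7–12 mm buds had 8.32 and 4.98 CPM and female 1–6 mm buds 1.18 and 1.52 CPM, against 0.184 and 0 CPM in hermaphrodite 7–12 mm buds, 0.673 and 0.221 CPM in hermaphrodite 1–6 mm buds, 0.0787 and 0.591 CPM in male 7–12 mm buds and 1.03 and 1.52 CPM in male 1–6 mm buds. Female and male buds of 1–6 mm overlapped in this gene.

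For evm.model.supercontig_21.184, female 7–12 mm buds had 3.92 and 4.31 CPM, against 0.443 to 1.42 CPM in the other 10 libraries, whose groups all overlapped with at least one other. For evm.model.supercontig_276.2, female 7–12 mm buds had 4.95 and 3.36 CPM and female 1–6 mm buds 1.25 and 1.40 CPM, against 0.303 to 0.885 CPM in the other 8 libraries. At these levels a library of the other groups held between 0 and 36 counts of each of these 4 genes, so differences among those groups rest on few counts.

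**Figure D2:**
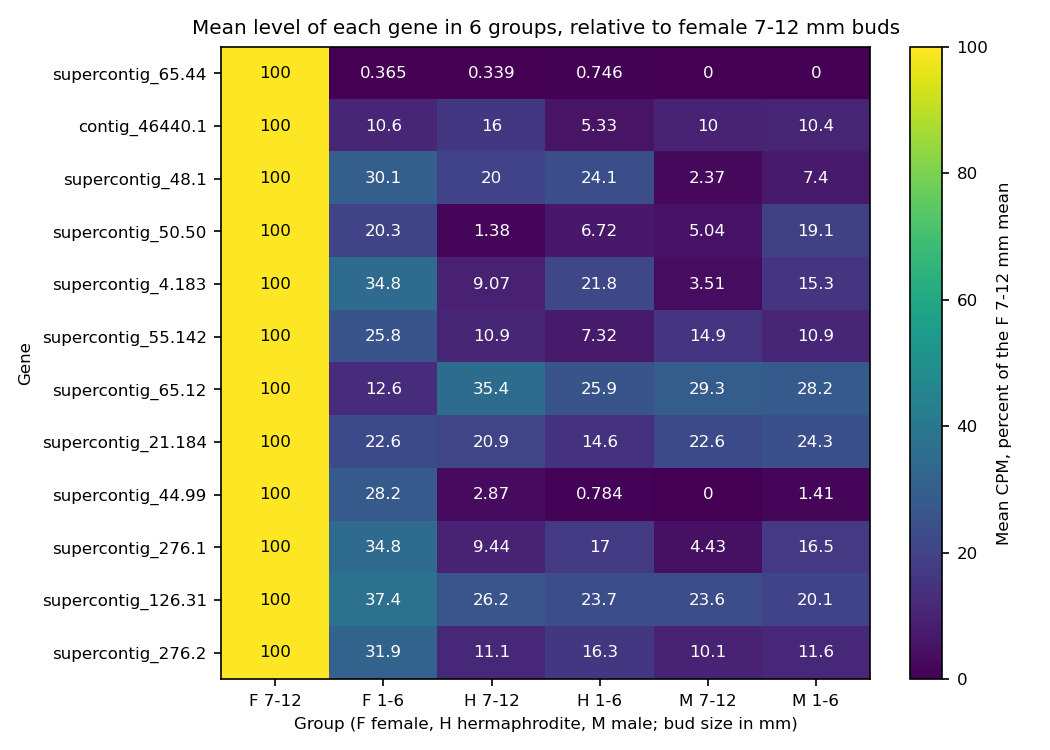
Mean CPM of each gene (rows) in each of the 6 groups (columns), as a percent of its mean in female 7–12 mm buds. Female 1–6 mm buds reached between 0.365 and 37.4 percent, and the lowest values in male 7–12 mm buds were 0 percent for evm.model.supercontig_65.44 and evm.model.supercontig_44.99.

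The order of the other groups was not part of the rule. Female 1–6 mm buds had the next highest mean in 8 of the 12 genes, hermaphrodite 7–12 mm buds in 2, hermaphrodite 1–6 mm buds in 1 (evm.model.supercontig_65.44, on 2 counts against 1) and male 1–6 mm buds in 1. Male 7–12 mm buds alone had the lowest mean in 5, and shared it with male 1–6 mm buds, both at 0 counts, in evm.model.supercontig_65.44. Both female 1–6 mm libraries stood above all 8 male and hermaphrodite libraries in 7 of the 12 genes, where 11.9 percent of the 19080 genes that reached the floor in any library showed the same. The 5 exceptions were evm.model.supercontig_65.44, evm.TU.contig_46440.1, evm.model.supercontig_50.50, evm.model.supercontig_65.12 and evm.model.supercontig_21.184. Against the mean of female 1–6 mm buds, the median fold of female 7–12 mm buds was 3.55 over 11 genes, and against male 7–12 mm buds it was 9.95 over 10 genes. With the genes left out for low counts, evm.model.supercontig_65.44 and against males also evm.model.supercontig_44.99, set at their bound or the lower limit of their interval, these medians were 3.71 and 14.9 over all 12.

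Differences between groups that hold no female 7–12 mm library were tested with edgeR's quasi-likelihood test over 19339 genes, and a gene was called at an adjusted p (Benjamini-Hochberg) below 0.05 with more than a 2-fold difference. All 12 genes passed the filter on low counts, but evm.model.supercontig_65.44 did so only through the female 7–12 mm libraries that chose it. It had too few counts elsewhere to tell the tested groups apart. In female against male buds of 1–6 mm, 6 of the 12 genes were called higher and 0 lower, where 6.95 percent of all genes tested were called higher and 5.86 percent lower. The median log2 fold change was 1.34 over the 12 genes and −0.05 over all genes, and it was 1.29 over the 11 genes with more than 3 counts in a group, with the low-count gene at the limit of its interval. At an unadjusted p below 0.05, 7 of the 12 were higher and 1, evm.model.supercontig_65.12, was lower, where 3461 and 3563 of all 19339 genes tested were.

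In that comparison evm.model.supercontig_48.1 was higher in female buds, by a log2 fold change of 2.27 ± 0.18 (SE implied by the test, edgeR adjusted p = 1.48e-05). The rise of evm.model.supercontig_4.183 was 1.40 ± 0.29 (edgeR adjusted p = 0.00535) and that of evm.model.supercontig_55.142 was 1.45 ± 0.39 (edgeR adjusted p = 0.0215). For evm.model.supercontig_276.1 the log2 fold change was 1.29 ± 0.31 (edgeR adjusted p = 0.0144) and for evm.model.supercontig_126.31 it was 1.11 ± 0.24 (edgeR adjusted p = 0.00704). The sixth called gene, evm.model.supercontig_44.99, had 29 counts in female and 2 in male 1–6 mm buds, a ratio of 14.1 with a 95% counting interval of 3.58 to 122 (edgeR adjusted p = 0.00912).

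Some of these calls depended on the setting. For evm.model.supercontig_55.142 the adjusted p was 0.129 on leaving out replicate 1 of the female 1–6 mm buds, and 0.0708 and 0.124 on leaving out replicate 1 and replicate 2 of the male ones, and it was 0.0823 with DESeq2, 0.0529 with limma-voom and 0.0594 with the libraries of the comparison alone. For evm.model.supercontig_276.1 it was 0.0715 when replicate 2 of the female buds was left out, and 0.0972 and 0.0718 when replicate 1 and replicate 2 of the male buds were. For evm.model.supercontig_126.31 the adjusted p was 0.0570 without female 1–6 mm replicate 1, and the log2 fold change fell to 0.85 without male 1–6 mm replicate 2. The count of genes called higher was then 3, and evm.model.supercontig_65.12 was called lower (−1.25, adjusted p = 0.0381), as it also was without female 1–6 mm replicate 2 (−1.40, adjusted p = 0.0318) and with limma-voom (−1.15, adjusted p = 0.0265). With replicate 2 of the male and of the hermaphrodite 1–6 mm buds left out together, as alignment was poorest there, 3 genes were called, evm.model.supercontig_48.1 and evm.model.supercontig_44.99 higher and evm.model.supercontig_65.12 lower. With the replicate number as a block, evm.model.supercontig_276.2 was also called higher in female buds (1.49, edgeR adjusted p = 0.0350) and evm.model.supercontig_65.12 lower (−1.07, edgeR adjusted p = 0.0274). Without the block these 2 genes had log2 fold changes of 1.59 and −0.98 with edgeR adjusted p of 0.0597 and 0.0488, and were not called.

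In female against hermaphrodite buds of 1–6 mm, 3 of the 12 genes were called higher and 0 lower, where 6.52 percent of all genes were called higher and 5.15 percent lower. The median log2 fold change was 0.97 over the 12 genes and −0.03 over all genes, and 1.14 over the 11 genes with more than 3 counts in a group. The log2 fold change of evm.model.supercontig_55.142 was 1.96 ± 0.42 (edgeR adjusted p = 0.00651) and that of evm.model.supercontig_276.1 was 1.157 ± 0.312 (edgeR adjusted p = 0.0254). The third gene, evm.model.supercontig_44.99, had 29 counts in female and 1 in hermaphrodite buds, a ratio of 23.7 with a 95% counting interval of 3.92 to 966 (edgeR adjusted p = 0.00866). The call of evm.model.supercontig_55.142 was lost without hermaphrodite 1–6 mm replicate 1 (adjusted p = 0.0610), and that of evm.model.supercontig_276.1 without any one of the 4 libraries compared (adjusted p between 0.0682 and 0.137). For evm.model.supercontig_48.1, called against male buds, the log2 fold change against hermaphrodite buds was 0.44 ± 0.16 (edgeR adjusted p = 0.0795). The gene evm.model.supercontig_65.12 went the other way, at −0.93 ± 0.33 (edgeR adjusted p = 0.0644), and was not called. Its log2 fold change was −1.34 without female 1–6 mm replicate 2 and −1.24 without hermaphrodite 1–6 mm replicate 1. Both comparisons share the female 1–6 mm libraries.

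**Figure D3:**
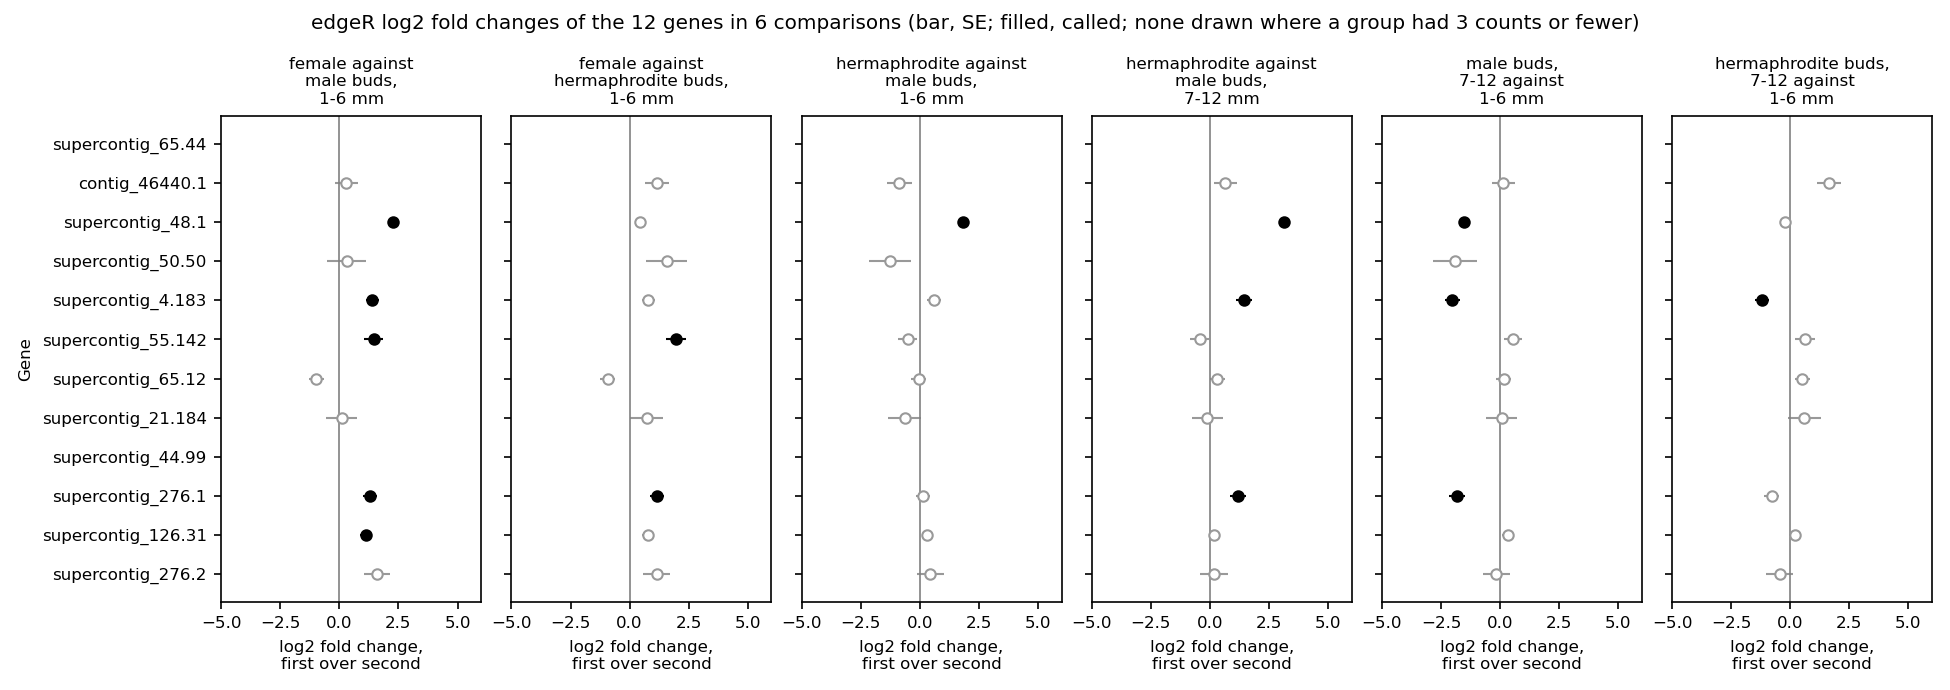
Log2 fold change of each gene in the 6 tested comparisons, with the group named first over the one named after it; bars are the SE implied by the test and filled points are called genes, and no point is drawn where a group had 3 counts or fewer. In female against male buds of 1–6 mm the filled points lie to the right of 0, and in male 7–12 against 1–6 mm buds to the left.

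Hermaphrodite buds were set against male buds at both sizes. At 1–6 mm, 1 of the 12 genes was called higher in hermaphrodite buds and 0 lower, where 2.25 percent of all genes were called higher and 2.34 percent lower. This gene was evm.model.supercontig_48.1, with a log2 fold change of 1.83 ± 0.18 (edgeR adjusted p = 0.000324). At 7–12 mm, 3 of the 12 genes were called higher in hermaphrodite buds and 0 lower, where 4.30 percent of all genes were called higher and 4.28 percent lower. For evm.model.supercontig_48.1 the log2 fold change was 3.14 ± 0.20 (edgeR adjusted p = 1.96e-05), and leaving out any one library left it called.

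For evm.model.supercontig_4.183 the difference between hermaphrodite and male buds of 7–12 mm was 1.44 ± 0.33 (edgeR adjusted p = 0.0128), and for evm.model.supercontig_276.1 it was 1.18 ± 0.34 (edgeR adjusted p = 0.0407). Both calls were lost without male 7–12 mm replicate 1 (adjusted p = 0.0907 and 0.224) and without hermaphrodite 7–12 mm replicate 1 (adjusted p = 0.417 and 0.300), and the count of called genes was then 1. The call of evm.model.supercontig_276.1 was also lost on leaving out any one of the 6 libraries of 1–6 mm buds (adjusted p between 0.0605 and 0.0681), with no low-count filter (adjusted p = 0.0508) and with the replicate block (adjusted p = 0.0621). With the libraries of the comparison alone the adjusted p of evm.model.supercontig_4.183 and evm.model.supercontig_276.1 was 0.200 and 0.176, and with limma-voom evm.model.supercontig_4.183 fell just short of the threshold. Hermaphrodite 7–12 mm libraries stood above the male ones with no overlap in 3 of the 12 genes, besides evm.model.supercontig_44.99 on 2 and 1 counts against 0 and 0, where 23.5 percent of all genes that reached the floor did so.

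The change with bud size in males and hermaphrodites was tested apart from females. In male buds, 0 of the 12 genes were called higher at 7–12 mm and 3 lower, where 2.92 percent of all genes were called higher and 2.77 percent lower. The log2 fold change of evm.model.supercontig_4.183 was −2.03 ± 0.32 (edgeR adjusted p = 0.00368), that of evm.model.supercontig_276.1 was −1.82 ± 0.34 (edgeR adjusted p = 0.00981) and that of evm.model.supercontig_48.1 was −1.52 ± 0.21 (edgeR adjusted p = 0.00169). Leaving out any one library kept the calls of evm.model.supercontig_4.183 and evm.model.supercontig_48.1, but with the libraries of the comparison alone the adjusted p of evm.model.supercontig_4.183 was 0.0591, and the adjusted p of evm.model.supercontig_276.1 was 0.0549 and 0.0550 on leaving out replicate 1 and replicate 2 of the 1–6 mm buds, and 0.0699 on leaving out replicate 1 of the 7–12 mm buds. The 7–12 mm male libraries lay below the 1–6 mm ones with no overlap in 4 of the 12 genes and above them in 1, where 34.0 percent of all genes lay below and 19.4 percent above.

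In hermaphrodite buds, 0 of the 12 genes were called higher at 7–12 mm and 1 lower, where 2.07 percent of all genes were called higher and 0.972 percent lower. This gene was evm.model.supercontig_4.183, with a log2 fold change of −1.19 ± 0.30 (edgeR adjusted p = 0.0483). The call held in 5 of 21 alternative settings, and it was lost on leaving out any one library other than hermaphrodite 7–12 mm replicate 1, with adjusted p between 0.0553 and 0.251. The 7–12 mm hermaphrodite libraries lay below the 1–6 mm ones with no overlap in 3 of the 12 genes and above them in 3, besides evm.model.supercontig_44.99 on 2 and 1 counts against 1 and 0, where 27.5 percent of all genes lay below and 17.9 percent above. For the directions with 0 calls by edgeR, the number of the 12 genes at an unadjusted p below 0.05 was 1 lower in female against hermaphrodite buds of 1–6 mm, 0 lower in hermaphrodite against male buds at either size, 0 higher with size in male buds and 1 higher with size in hermaphrodite buds.

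On the assembly that the counts use, the 12 genes lay on 10 contigs and each had a single placement, while 3.81 percent of the 23196 genes with a count had several. No exon of the 12 overlapped with an exon of another model. The median coding length was 814 bases over the 12 genes and 838 bases over all genes with a count. A single interval made up 6 of the 12 models, or 50.0 percent, against 23.3 percent of all genes with a count.

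A pair of the genes were neighbours: evm.model.supercontig_276.1 (scf7180000009374:547574-548283, minus strand) and evm.model.supercontig_276.2 (scf7180000009374:550187-550576, minus strand) were 1904 bases apart with no model between them. The genes evm.model.supercontig_65.44 (scf7180000009180:215688-217119, plus strand) and evm.model.supercontig_65.12 (scf7180000009180:442631-447244, plus strand) shared a contig of 269 models but were not adjacent. Among 19 other genes with a count next to the 12, the lower female 7–12 mm value was above the highest other value in 2, evm.model.supercontig_126.30 at 1.75 times and evm.model.supercontig_48.2 at 1.11 times, which is 10.5 percent, against 928 of the 23196 genes with a count, or 4 percent. The median ratio was 0.568 over these neighbours and 0.663 over all genes with a count.

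**Figure D4:**
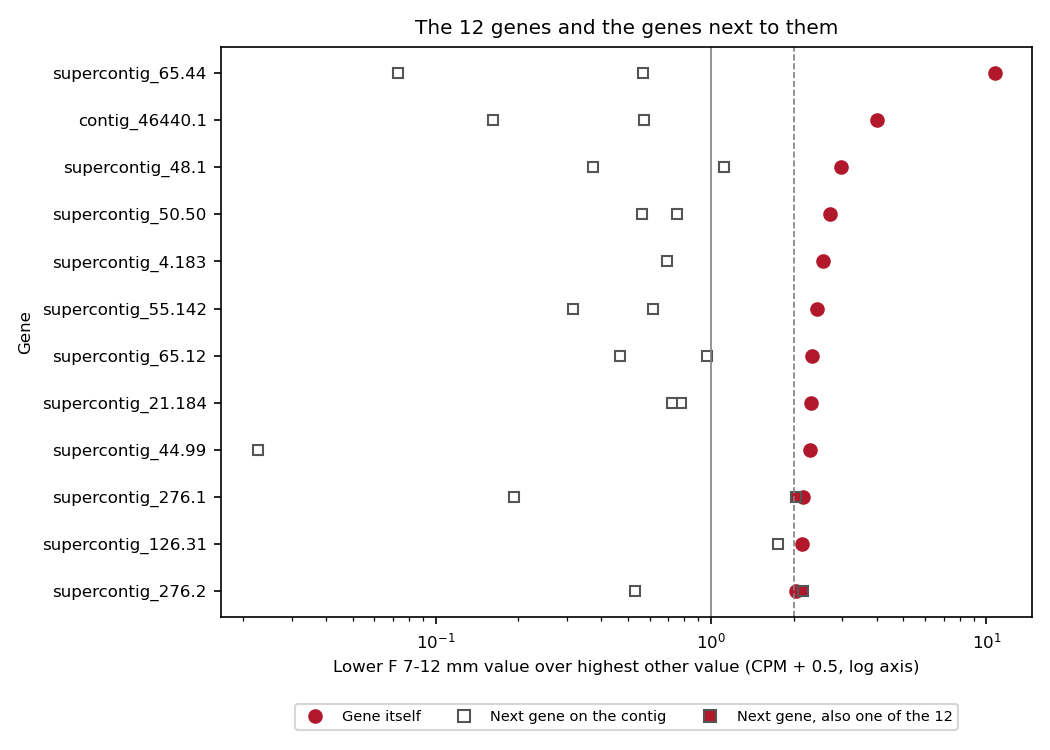
Ratio of the lower female 7–12 mm value to the highest value of the other 10 libraries (CPM plus 0.5, log axis) for each of the 12 genes and for the genes with counts on either side of it on the contig. The solid line marks a ratio of 1 and the dashed line the threshold of 2; apart from the adjacent pair, the neighbours lie at 0.0227 to 1.75.

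None of the 83 genes named in the tables of the study met the numeric rule, so leaving them out removed 0 genes. The highest ratio among them was 1.41, in a gene annotated as VAN3-binding with an auxin canalisation domain, which had 108 and 103 CPM in female 7–12 mm buds, against at most 73.2 CPM in the other libraries. A list of 11 gynoecium and organ growth genes was drawn from those tables. The study chose most of them on these samples, but Auxin response factor 3, NPY1 and APETALA 2 on other libraries. Those compared the rudimentary pistils of normal and sex-reversed males of another cultivar. Of the 11 genes, 5 had both female 7–12 mm libraries above the other 10, where 4 percent of all genes with a count did. Most of the 11 were listed for differing between sex types in these libraries. This share and the calls of the 11 genes thus depend on that choice. The others of the 5 had ratios of 1.01 to 1.04, and the highest ratio was 1.17. That ratio was of one of the AINTEGUMENTA homologues, AP2-type regulators of organ growth and ovule development in Arabidopsis, with 81.4 and 60.6 CPM in female 7–12 mm buds, 37.7 and 46.2 CPM in female 1–6 mm buds, 18.7 and 14.4 CPM in hermaphrodite 7–12 mm buds, 33.6 and 27.4 CPM in hermaphrodite 1–6 mm buds, 13.8 and 10.05 CPM in male 7–12 mm buds and 51.6 and 51.4 CPM in male 1–6 mm buds. In the tested comparisons, with the shares of all genes given above, 2 of these 11 genes were called higher in female against male buds of 1–6 mm, 1 higher in female against hermaphrodite buds of 1–6 mm, 0 in hermaphrodite against male buds of 1–6 mm and 4 higher in hermaphrodite against male buds of 7–12 mm, while 4 were called lower with size in male buds and 2 in hermaphrodite buds. Of 9 cell division genes from the same tables, 4 were called higher in hermaphrodite against male buds of 7–12 mm, 5 lower with size in male buds (median log2 fold change −1.52 over the 9) and 1 in hermaphrodite buds, 1 lower in female against hermaphrodite buds of 1–6 mm, and 0 in the other comparisons of 1–6 mm buds. The study chose most of the 9 genes on these samples, so these calls partly repeat that choice. Of 6 brassinosteroid and abscisic acid enzyme genes from the same tables, 1 had both female 7–12 mm libraries above the other 10. The median ratio over the 6 was 0.462. The 1 gene was CYP85A2, which catalyses the last steps of brassinosteroid synthesis. It reached 1.31 and 1.08 CPM in female 7–12 mm buds and 0.592 and 0.701 CPM in female 1–6 mm buds. It was listed at 0 in all 4 male libraries, and stayed under the floor of the rule. A steroid 22-alpha-hydroxylase of the list went the other way, with 3.51 and 2.42 CPM in female and 10.8 and 9.31 CPM in male 7–12 mm buds. In female against male buds of 1–6 mm, 2 of the 6 genes were called higher and 2 lower.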

How the data were processed

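The deposited data are raw counts per gene for 12 libraries of total RNA from papaya flower buds (poly(A) stranded libraries). According to the submitters' processing notes and the file headers, the authors checked and trimmed reads with FastQC 0.11.5 and Trimmomatic 0.36, aligned them with HISAT2 2.0.5, and counted them with featureCounts 1.5.2 over exons, reverse-stranded and with multi-mapping reads included, on gene models holding coding sequence only. Replicate 1 was sequenced single-end and replicate 2 paired-end, and no pairing option was set in the counting, so mates were counted separately. The members and gene lists were chosen with earlier results of these data known. Genes were named for the 6 highest levels and the 6 largest ratios, the 2 just inside and the 2 just outside the threshold, up to 2 calls per direction and comparison, and adjacency; evm.model.supercontig_21.184 was named after its values were seen. CPM used library totals. Tests used edgeR 4.0.16 in R 4.3.3: filterByExpr with a minimum count of 10, TMM factors, group means over 12 libraries and robust quasi-likelihood fits, checked on simulated data. The simulated counts held larger changes than most of those called here and no difference by replicate number, so the check covers neither point. An exact test of 2 against 2 libraries cannot go below p = 0.333. Same-numbered replicates shared a platform, and their deviations correlated across genes at 0.73 to 0.84 in 15 pairs of groups, so the numbers pair the samples. The main tests had no replicate block, so this shared difference was part of their spread. The common biological coefficient of variation (spread between replicates beyond counting error) was 0.307 in that fit and 0.110 with the block. Alternatives were DESeq2 1.42.0, limma 3.58.1 (voom), RLE factors, other filters, the replicate block, other rule settings, and libraries left out.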

Additional observations from a re-analysis of the deposited data

Results flagged for a closer look

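In 4 of the 12 genes, the libraries of 7–12 mm buds lay below those of 1–6 mm buds with no overlap in male buds, and in 3 of these also in hermaphrodite buds, opposite to female buds. Over all genes, 34.0 percent lay lower in this way in male buds and 27.5 percent in hermaphrodite buds. Both counts were near these shares, so they are no trait of the 12 genes. The order in female buds is fixed by how the genes were chosen, and the difference between the sex types was not tested. By edgeR the size change was called in male buds for evm.model.supercontig_48.1, evm.model.supercontig_4.183 and evm.model.supercontig_276.1 and in hermaphrodite buds for evm.model.supercontig_4.183, but for evm.model.supercontig_50.50 the adjusted p was 0.261 in male and 0.378 in hermaphrodite buds, and for evm.model.supercontig_276.1 it was 0.246 in hermaphrodite buds. In male buds the mean CPM of 7–12 mm over that of 1–6 mm buds was 0.320 for evm.model.supercontig_48.1, 0.263 for evm.model.supercontig_50.50, 0.229 for evm.model.supercontig_4.183 and 0.269 for evm.model.supercontig_276.1. In hermaphrodite buds it was 0.205 for evm.model.supercontig_50.50, 0.417 for evm.model.supercontig_4.183 and 0.556 for evm.model.supercontig_276.1. The same ratio in female buds was 3.32, 4.92, 2.87 and 2.88 for evm.model.supercontig_48.1, evm.model.supercontig_50.50, evm.model.supercontig_4.183 and evm.model.supercontig_276.1. In evm.model.supercontig_50.50 the hermaphrodite 7–12 mm libraries together held 3 counts.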

How the results depend on the processing

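The number of genes that met the rule was 12, and it was 55 at 1.5 times and 2 at 3 times the other libraries, 68 with replicate 1 libraries alone, 41 with replicate 2 libraries alone, and 12 to 38 with each library left out in turn (27 without female 7–12 mm replicate 1 and 38 without replicate 2). The other rule settings gave 9 to 15 genes. TMM-scaled totals kept 10 of the 12 and lost the 2 just inside the threshold, evm.model.supercontig_276.2 and evm.model.supercontig_126.31. The count of called genes in hermaphrodite 7–12 against 1–6 mm buds was 1, but 0 with no low-count filter, with DESeq2, with limma-voom, with the libraries of the comparison alone and with both doubted libraries left out (replicate 2 of the male and the hermaphrodite 1–6 mm buds, highest in unaligned reads in the study's alignment summary; this choice was made after seeing the data), and 0 to 1 with single libraries left out. In hermaphrodite against male 7–12 mm buds it was 3, but 1 with the libraries of the comparison alone, and 1 to 3 with single libraries left out. In female against male 1–6 mm buds it was 6, all higher, but 3 (2 higher and 1 lower) without both doubted libraries, and 4 to 6 with single libraries left out (3 to 6 higher and up to 1 lower). Of 357 values of called genes under the alternatives, 299 stayed called, 58 lost the call and 0 changed direction. This total holds settings with libraries left out from outside the comparison. It also holds a setting without the 2-fold threshold, under which no call could be lost. Single calls held in 5 to 21 of 21 settings. With the replicate block, 8 genes were called in female against male 1–6 mm buds and 2 in hermaphrodite against male 7–12 mm buds, and it changed no call of the 12 genes other than those 3. The causes of these changes were not tested. With 2 libraries per group and few counts outside female 7–12 mm buds, differences among the low groups were not detectable for several genes.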
